A study of Mus musculus with 36 samples.

Results

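In mouse bone marrow-derived dendritic cells, 8 ATAC-seq peaks read higher with the cyclic dinucleotide 3',3'-cGAMP (cG) than in untreated cells. With Sendai virus (S) and with the ligand labelled PAM (P), their difference from untreated cells stayed under a set limit. They were 8 of the 116556 peaks on chromosomes 1 to 19, in a table of 119751 peaks. ATAC-seq counts DNA fragments cut by a transposase, so more reads in a peak mean more open chromatin there. Each peak's level was log2 of its CPM (counts per 1000000 counts of its library) plus 0.5, centred on the median of its library. The difference d was the mean level of a group's 2 libraries minus that of the 2 untreated control libraries (Ctrl). A member had a d of at least 1.5 in cG and of at most 0.5 in both S and P. That limit does not mean no gain. In mean CPM, S was above Ctrl at every member, for example 0.466 against 0.127 at the peak inside Gm4951. P was above Ctrl at some members (Yes1, 1.455 against 0.775) and below it at others (Mrtfa, 0.865 against 0.970). The members were thus chosen by these measured values, and the levels in Ctrl, cG, S and P are given as a description, with no test.

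The cells were grown in 15 ng/mL GM-CSF from the marrow of female C57BL/6J mice, 6 to 8 weeks old, and were stimulated for 6 h before nuclei were tagmented. The 6 single stimuli used beside Ctrl were PAM, LPS (L), HMW (H), SeV (Sendai virus, S), 3',3'-cGAMP (cG) and Zymosan depleted (Z). Pairs were PAM with LPS (PL), PAM with HMW (PH), LPS with HMW (LH), PAM with SeV (PS), PAM with cGAMP (PcG), SeV with cGAMP (ScG), Zymosan depleted with SeV (ZS) and Zymosan depleted with cGAMP (ZcG). Triplets were PLH, PScG and ZScG, named by the same letters. Each of the 18 groups had 2 libraries. Nothing in the labels says that these came from separate animals or cultures, so p-values measure the spread between libraries, which may be technical.

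cGAMP is a second messenger that binds STING, an adaptor in the membrane of the endoplasmic reticulum. STING recruits the kinase TBK1, which activates the transcription factor IRF3, and type I interferon genes are then switched on. Sendai virus carries an RNA genome and is sensed mainly by RIG-I, which signals through MAVS on mitochondria to the same kinase and the same factor. PAM names a ligand whose identity is not described further in the labels.

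All 8 members lay inside protein-coding genes (mouse build mm10), and no gene held more than 1. The peak with the highest d of cG was inside Fto, which encodes an RNA demethylase, at chr8:91539780-91540002. The next was inside Gm4951, a predicted gene of the interferon-inducible GTPase family. The others were inside Mrtfa (a coactivator of serum response factor, chr15:81177847-81178266), Stag1 (a cohesin subunit, chr9:100951631-100951845), Jam3 (a junctional adhesion molecule, chr9:27144582-27144846), Pla1a (a phospholipase acting on phosphatidylserine, chr16:38416542-38416860), Yes1 (a kinase of the Src family, chr5:32683792-32684134) and Usp8 (a deubiquitinase of the endosomal pathway, chr2:126708433-126708697). The Jam3 peak also lay inside the long noncoding gene LOC115487155. The gene table used here lists gene bodies and not exons, so exonic and intronic positions were not told apart.

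The members of Usp8 and Mrtfa were the 2 whose nearest annotated start belonged to their own gene and lay within 20 kb. No start was listed for Gm4951, Jam3 and Pla1a, so the distance of these members from their own promoters is not known here. The listed starts of Fto, Stag1 and Yes1 lay 226366, 308290 and 72792 bp from their members. Their centres lay 1237 bp from the Usp8 start and 12680 bp from the Mrtfa start. Another peak covered each of these promoters, and the 250 bases upstream of each start are shown because those promoter peaks can be set beside the members. The sequences are RefSeq's, build GRCm38.p6, printed 5′ to 3′ on the gene's strand, for chr2:126707078-126707327 (plus strand) and chr15:81190737-81190986 (minus strand).
Usp8: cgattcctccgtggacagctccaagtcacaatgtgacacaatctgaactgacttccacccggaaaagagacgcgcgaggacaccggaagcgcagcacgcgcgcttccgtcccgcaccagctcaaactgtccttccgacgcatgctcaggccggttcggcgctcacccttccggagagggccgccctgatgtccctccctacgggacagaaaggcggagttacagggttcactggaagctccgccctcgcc
Mrtfa: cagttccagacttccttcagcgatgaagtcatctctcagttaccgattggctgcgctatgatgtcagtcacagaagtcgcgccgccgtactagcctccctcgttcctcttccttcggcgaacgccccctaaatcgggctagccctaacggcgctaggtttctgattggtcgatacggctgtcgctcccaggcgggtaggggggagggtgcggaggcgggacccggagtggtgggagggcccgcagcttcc
Neither window held any of 10 motifs searched on both strands, so no letter is in capitals. The motifs were the interferon response element GAAANNGAA (in 7.13% of 32851 RefSeq promoter windows), NF-kappaB GGANTTTCC (1.06%), AP-1 TGANTCA (6.75%), PU.1 GAGGAAGT (2.44%), PU.1-IRF GGAANNGAA (6.99%, overlapping the PU.1 and interferon elements in part), GAS TTCCNGGAA (0.913%), C/EBP TTGCNNCAA (1.74%), RUNX TGTGGTT (4.40%), the E-box CACGTG (6.02%) and CTCF by name (0.508%). The promoter peak of Usp8, at chr2:126706863-126708324, read 41.2 CPM in Ctrl and 42.1 CPM in cG (means of 2 libraries), a d of -0.03. The promoter peak of Mrtfa, at chr15:81190084-81191377, read 33.9 CPM in Ctrl and 48.9 CPM in cG, a d of 0.46. Both promoter peaks had a smaller d than their members. The members were chosen for a d of cG of at least 1.5 and the promoter peaks were not, so no conclusion is drawn from this. In CPM the Mrtfa member read 0.970 in Ctrl and 4.34 in cG (means of 2 libraries). The Usp8 member, at chr2:126708433-126708697, began shortly after the end of its promoter peak.

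Few peaks reached the cGAMP threshold while staying within the limit for the virus. Among chromosomes 1 to 19, 3107 peaks had a d of cG of at least 1.5, and 14 of these had a d of S of at most 0.5. Requiring the P condition left 8. Of the 1362 peaks with a d of cG of at least 1.5 and a d of P of at most 0.5, the d of S ran from -0.00 to 4.07, with quartiles of 1.35 and 2.03 and a median of 1.68. Of these 1362 peaks, 870 had a d of S of at least 1.5 too. The members' place at the low end of the spread of d of S is set by the rule. The d of cG and the d of S share the 2 Ctrl libraries. The reverse set was larger, with 110 peaks at a d of at least 1.5 in S and at most 0.5 in cG and P. The 870 peaks with a d of at least 1.5 in both cG and S and of at most 0.5 in P are called the shared peaks. With the upper threshold lowered to 1, 325 peaks met the cGAMP rule and 771 the virus rule.

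**Figure D1:**
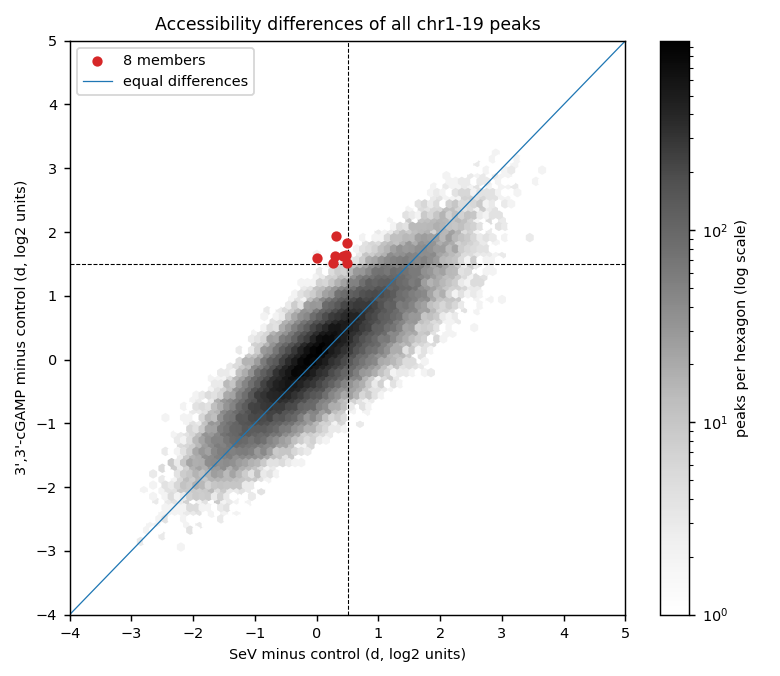
Difference from control in cG (vertical axis, log2 units) against that in SeV (horizontal axis, log2 units) for the 116556 peaks on chromosomes 1 to 19; grey hexagons give the number of peaks on a log scale, red points the 8 members, dashed lines the thresholds of 1.5 and 0.5, and the blue line equal differences. Peaks gather along the line of equal differences. The members sit at the thin upper left edge of that cloud, a place set by the rule.

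The members just inside the threshold were the peaks of Usp8 (d of cG 1.51), Yes1 (1.52) and Pla1a (1.59). Just outside it, with both other conditions met, were peaks inside Lpp (1.498), inside Ccdc40 (1.49) and nearest to Slc25a12 (1.48).

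At 4 members both cG libraries were above the other 34 libraries in CPM, a pattern that 0.84% of all chromosome 1 to 19 peaks showed, and the rule itself used the cG libraries. CPM here is scaled to the counts in chromosome 1 to 19 peaks without the largest of them. The Fto peak read 2.26 and 2.30 CPM in the cG libraries (22 and 25 counts). It read 0 and 0.464 CPM in Ctrl (0 and 4 counts), 0.521 and 0.406 CPM in S, and 0.0992 and 0.473 CPM in P. A count of 0 in that Ctrl library allows up to 3 counts, or 0.38 CPM, and such limits cover counting error only. The gap between cG and Ctrl, S and P at the Fto peak follows from the rule. The next group after cG was ZcG, at 1.54 and 1.83 CPM (11 and 14 counts). It was above its partner Z, at 0.306 and 0.614 CPM. The remaining 24 libraries ran from 0.0741 to 1.06 CPM there, below both ZcG libraries.

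The Jam3 peak read 2.46 and 2.03 CPM in cG (24 and 22 counts), against 0 and 0.927 CPM in Ctrl (0 and 8 counts). It read 0.521 and 0.812 CPM in S and 0.198 and 0.189 CPM in P. The 2 Ctrl libraries thus enclosed the values of S and P. ZcG was again second, at 1.68 and 1.04 CPM (12 and 8 counts), while Z read 0.306 and 0 CPM (2 and 0 counts). The other 24 libraries ran from 0 to 1.84 CPM, the highest being a ZScG library.

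The Mrtfa peak was the strongest member by counts, with 38 and 52 counts in cG (3.90 and 4.79 CPM) and 8 and 8 in Ctrl (1.01 and 0.927 CPM). It read 1.74 and 1.79 CPM in S, 0.595 and 1.13 CPM in P, 1.26 and 2.09 CPM in ZcG and 1.38 and 1.35 CPM in Z. ZcG and Z overlapped here, and S lay above Ctrl in both libraries although its d of 0.47 was within the rule. The highest of the remaining libraries was ZScG replicate 2, at 3.68 CPM. The Usp8 peak read 2.05 and 2.49 CPM in cG and 0.507 and 0.348 CPM in Ctrl. It read 0.434 and 1.14 CPM in S, 0.198 and 0.567 CPM in P, 0.28 and 1.17 CPM in ZcG, and 1.07 and 0.737 CPM in Z. At Usp8 the ZcG libraries enclosed the Z libraries, and no other library passed 1.53 CPM.

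At the other 4 members some library outside cG reached the lower cG library. Pla1a had 10 such libraries, Stag1 and Yes1 had 4 each, and Gm4951 had 2. The Pla1a peak read 3.49 and 1.38 CPM in cG (34 and 15 counts), 0.127 and 0.695 CPM in Ctrl, 0.521 and 0.406 CPM in S and 0.892 and 0.756 CPM in P. With PAM added to cGAMP it read 2.14 and 2.67 CPM in PcG, but with Zymosan depleted it read 0 and 1.30 CPM in ZcG. The cG mean was 2.43 ± 1.49 CPM (SD, n = 2), so both PcG libraries lay between its 2 libraries.

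The Yes1 peak read 2.46 and 4.24 CPM in cG, 0.507 and 1.04 CPM in Ctrl, 1.04 and 1.95 CPM in S, and 1.59 and 1.32 CPM in P. HMW alone gave 2.74 and 3.00 CPM, both between the cG libraries. The Stag1 peak read 2.15 and 1.75 CPM in cG, 0.633 and 0 CPM in Ctrl, 1.21 and 0.244 CPM in S and 0.595 and 0.378 CPM in P. LPS alone gave 1.93 and 1.73 CPM there, close to cG. The Gm4951 peak, at chr18:60226935-60227137, read 2.26 and 1.38 CPM in cG, 0.253 and 0 CPM in Ctrl, 0.607 and 0.325 CPM in S and 0.297 and 0.189 CPM in P. Zymosan depleted with the virus (ZS) was second there, at 1.60 and 0.823 CPM, while ZcG read 0.14 and 0.782 CPM. These 4 peaks thus had other stimuli, among them LPS, HMW and a virus pair, whose libraries overlapped those of cGAMP.

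**Figure D2:**
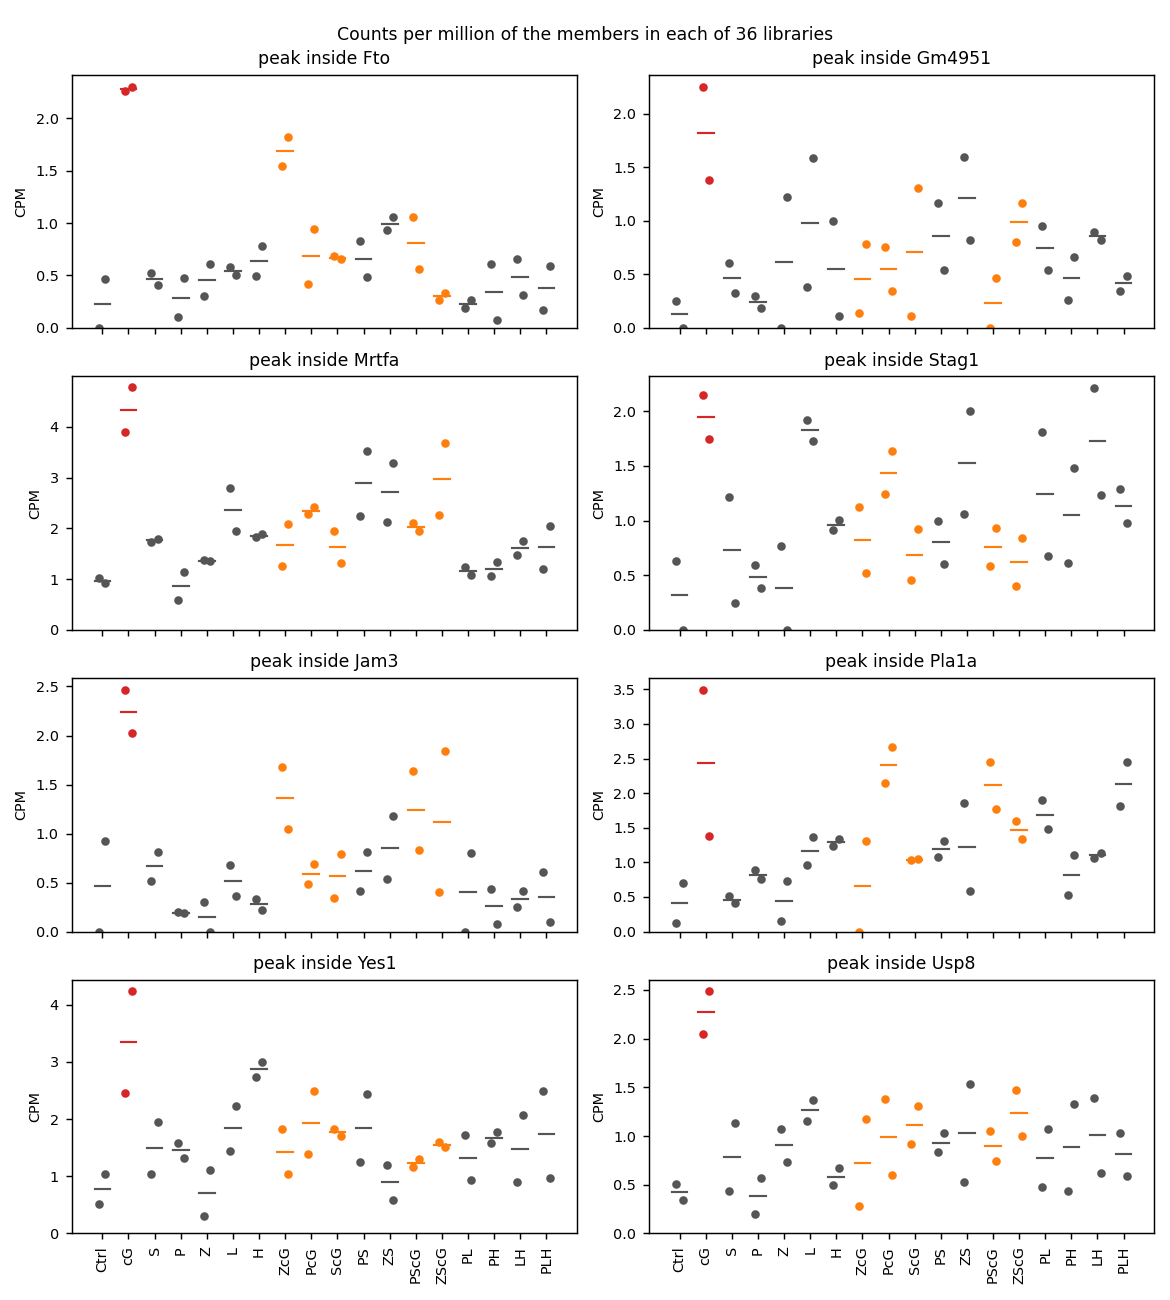
CPM (vertical axes, linear, from 0) of the 8 members in each of the 36 libraries by group (horizontal axis); points are libraries, short bars the mean of 2, red is cG and orange the groups with cGAMP in a combination. The cG libraries are highest at Fto, Mrtfa, Jam3 and Usp8, and at Pla1a, Stag1, Yes1 and Gm4951 libraries of other groups reach the lower cG library.

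The members were short and shallow. Their median width was 265 bp (203 to 420 bp), against 451 bp over all chromosome 1 to 19 peaks and 521.5 bp over the 870 peaks shared by cGAMP and virus. Their median of mean CPM over the 36 libraries was 0.985, against 2.75 over all peaks and 3.32 over the shared peaks. The 2 Ctrl libraries together held a median of 7 counts per member, against 41 over all peaks and 12 over the shared ones, and the 2 cG libraries together a median of 47 counts, against 98 over the shared ones. A difference of a few counts in a control library therefore moves d. What these low counts add to the choice of members was not tested.

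Only 1 member met the whole rule in replicate 1 alone (Gm4951) and 1 in replicate 2 alone (Fto), taking each group's replicate against the Ctrl replicate of the same number. The d of cG of the Jam3 peak was 2.44 in replicate 1 and 0.81 in replicate 2, and that of the Pla1a peak was 2.55 and 0.64. Stag1 went the other way, with 1.10 in replicate 1 and 2.16 in replicate 2. Applied to replicate 1 libraries only, the rule selected 54 peaks, and applied to replicate 2 libraries only it selected 57, with 0 in common (0% of either list). The other replicate's libraries were not used in that choice. Among the 54 their median d was 0.45 for cG and 0.40 for S, and cG was above S at 61.1% of the peaks, against 57.2% of all peaks. Among the 57 the medians were 0.42 and 0.40, and cG was above S at 50.9%, against 51.3% of all peaks. In the replicate not used for the choice, cG was above S about as often at the chosen peaks as over all peaks. Only 1 member was in each list, so these shares do not describe the members. The chosen peaks and all peaks were not matched for depth, and no conclusion on single peaks is drawn.

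Under the same procedure the virus rule selected 204 peaks in replicate 1 and 160 in replicate 2, with 12 in common (5.88% and 7.50% of the lists). In the replicate not used, the 204 had a median d of 1.15 in S and 0.55 in cG, and the 160 had 1.32 and 0.69. S was above cG at 83.3% and 85.6% of them, against 42.8% and 48.7% of all peaks. No test was made of the difference between the cGAMP and the virus rule.

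In the other groups the members are described by d, whose control libraries are those of the rule. Their median d was 0.61 in ZcG (0.16 to 1.67), 0.64 in PcG (0.16 to 1.54), 0.70 in ScG (0.23 to 0.79), 0.56 in PScG (-0.01 to 1.39) and 0.75 in ZScG (0.11 to 1.17). Among groups without cGAMP it was 0.76 in L, 0.54 in H, 0.64 in PS, 0.87 in ZS and 0.22 in Z. The median of 1.63 in cG alone is a value the members were selected on, so it is not set against these. A d of at least 1.5 was reached by 1 member in ZcG (Fto, 1.67; background 3.3% of all peaks), 1 in PcG (Pla1a, 1.54; background 4.75%) and 0 in ScG (4.7%), PScG (6.07%), ZScG (4.8%), L (2.39%), H (0.804%) and Z (0.814%). The 870 shared peaks had median d values of 1.92 in cG, 1.91 in S, 1.81 in ZcG, 1.49 in PcG and 1.88 in ScG. The median over all peaks was between -0.06 and 0.05 in every group.

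**Figure D3:**
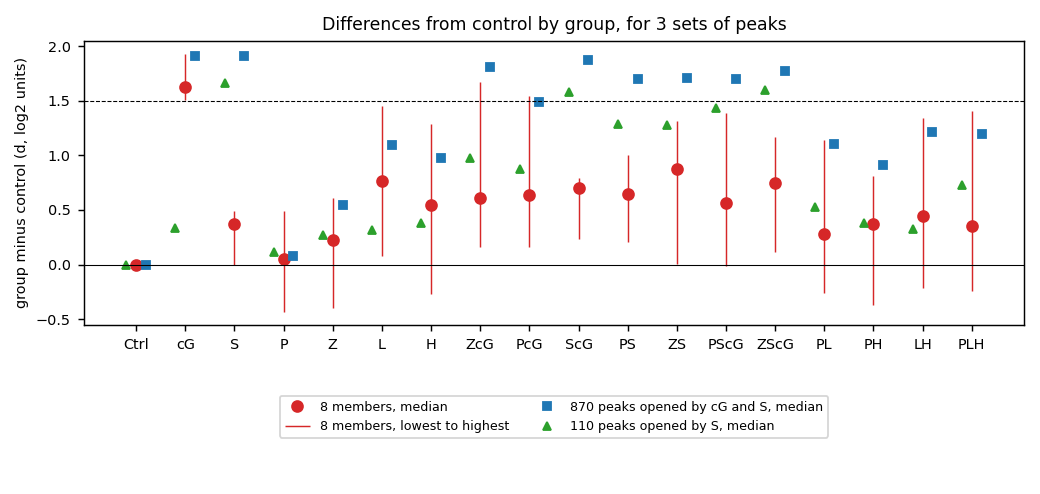
Difference from control (vertical axis, log2 units) by group (horizontal axis) for the 8 members (red, median with a line from lowest to highest), the 870 peaks opened by cGAMP and virus (blue squares, median) and the 110 opened by virus only (green triangles, median); the dashed line marks 1.5. Values in cG, S and P are set by how each set of peaks was chosen. In the other groups the members' median is at most 0.87. That of the shared peaks is 1.49 or above wherever cGAMP or virus was given.

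Further comparisons were between groups other than Ctrl, cG, S and P, so none of the libraries compared had been used by the rule. They were tested with edgeR's quasi-likelihood test over 119464 peaks with Benjamini-Hochberg adjustment (called at an adjusted p under 0.05). All 36 libraries were in 1 fit. The spread behind the SEs and p-values was therefore estimated in part from the libraries of the rule, so the tests were not fully independent of it. The nearest to a repeat of the choice was ZcG minus Z, cGAMP added to Zymosan depleted. Of the 8 members 0 were called there, against 9.07% of all peaks (4.12% higher and 4.95% lower). Among only 8 peaks, a count of 0 does not set the members apart from that share. At an unadjusted p under 0.05 edgeR had 2 members, Jam3 and Fto, and DESeq2 called 0 with 2 at that unadjusted level and 3 left without an adjusted p. The Jam3 peak held 2 counts over the 2 Z libraries and 20 over the 2 ZcG libraries, a CPM ratio of 9.92 (exact 95% interval 2.41 to 87.5, counting error only). Its fitted log2 fold change was 3.20 ± 1.12 (SE), with an edgeR adjusted p of 0.0502, just outside the threshold. The Fto peak had a fitted log2 fold change of 1.81 ± 0.84 (SE), with an edgeR adjusted p of 0.174.

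The Jam3 call depended on the setting. It was made with DESeq2's size factors in edgeR (adjusted p 0.0491), with no filter on low counts (0.0498), with the largest chromosome 1 to 19 peak left out (0.0477) and without Z replicate 1 (0.0476), where the fold rests on a Z library with 0 counts. Over 10 alternatives its adjusted p ran from 0.0476 to 0.368. The other 6 members had fitted log2 fold changes between -0.47 (Gm4951) and 1.2 (Stag1). Leaving out single libraries moved Stag1 between 0.11 and 6.23 and Yes1 between 0.39 and 2.2. Over all 8 the median was 0.72, with 6 of 8 above 0, while the median of all peaks was 0.00. Both ZcG libraries were above both Z libraries in CPM at 2 of 8 members, Fto and Jam3, a share of 24.0% being seen over all peaks. Of the 870 shared peaks 539 were called higher (62.0%, median log2 fold change 1.51), and of the 110 virus-only peaks 22 were (20%). The shared peaks were chosen with the same Ctrl and cG libraries as the members, and also for a d of at least 1.5 in S. None of the libraries of that choice was among those compared here. The shared peaks were also deeper than the members, with a median of mean CPM of 3.32 against 0.985. The shares called are therefore not like for like, here or in the comparisons below.

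Adding cGAMP to a mixture that already held the virus gave no member call. Few of all peaks were called there either, so 0 of 8 was near the share over all peaks. In PScG minus PS, 0 of 8 were called (background 0.602%), with 0 at an unadjusted p under 0.05 by edgeR and by DESeq2. DESeq2 gave no adjusted p for any of the 8 members here and in 5 further comparisons (ZScG minus ZS, PcG minus PS, ZcG minus ZS, PScG minus PcG and ZScG minus ZcG), so it makes no adjusted call there. The fitted log2 fold changes ran from -1.63 (Gm4951) to 0.96 (Jam3), with a median of -0.02. Both PScG libraries were above both PS libraries at Jam3 and Pla1a, 2 of 8, against 18.5% of all peaks. In ZScG minus ZS, 0 of 8 were called (background 0.0586%), with 0 at the unadjusted level by both tools, values from -1.64 (Fto) to 0.88 (Yes1) and a median of 0.25. There 1 of 8, Yes1, was higher in both ZScG libraries than in both ZS libraries, against 14.7% of all peaks. The Fto peak, whose ZcG libraries were next to cG, read 0.267 and 0.335 CPM in ZScG (2 and 2 counts).

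cGAMP and virus were also set against each other directly, each beside a common partner. In PcG minus PS, 0 of 8 members were called (background 0.129%), with 0 at an unadjusted p under 0.05 by edgeR and by DESeq2. The fitted log2 fold changes ran from -0.56 to 0.97, and their median was 0.02. Both PcG libraries were above both PS libraries at Stag1 and Pla1a (2 of 8, background 20.8%). In ZcG minus ZS, 0 of 8 were called (background 0.459%), again with 0 at the unadjusted level by both tools. The range was -1.23 (Gm4951) to 0.86 (Fto) and the median -0.49, with both ZcG libraries above both ZS libraries at Fto only (1 of 8, background 13.8%). No preference for cGAMP over virus was detected at the members in either pair. So few of all peaks were called in these pairs that 0 of 8 does not set the members apart from other peaks. Standard errors for single members ran from 0.42 to 0.91 log2 units.

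**Figure D4:**
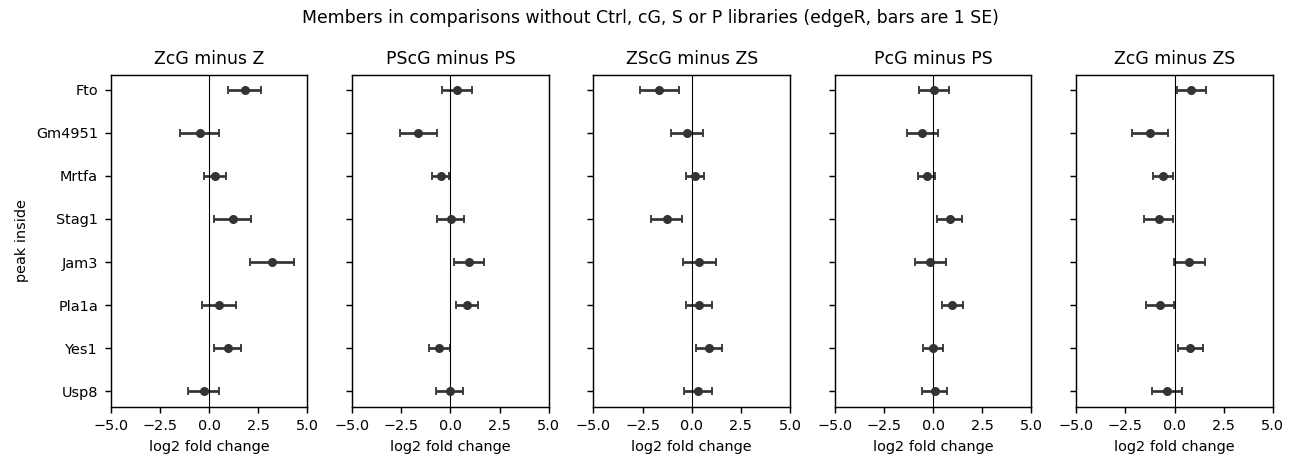
Fitted log2 fold changes (horizontal axes) of the 8 members (vertical axis) in 5 comparisons that use no Ctrl, cG, S or P library; points are edgeR estimates and bars 1 standard error. The estimates lie on both sides of 0 in each panel, and the furthest to the right is Jam3 in ZcG minus Z, at 3.20.

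Beside Zymosan depleted, adding the virus in place of cGAMP gave no member call either. In ZS minus Z, 0 of 8 were called (background 15.2%), which among only 8 peaks does not set the members apart either. At an unadjusted p under 0.05 edgeR had 2 members and DESeq2 had 1, and DESeq2 called 0. All 8 fitted values were above 0 (60780 of the 119464 peaks were), from 0.12 (Usp8) to 2.44 (Jam3, edgeR adjusted p 0.152), with a median of 0.92. Under alternative settings the lowest value was -0.82 for Usp8, -0.43 for Yes1 and -0.12 for Gm4951, and Jam3 ran from 1.37 to 6.19. Stag1 had 2.00 ± 0.84 (SE), with an edgeR adjusted p of 0.0923, and it was called only without Z replicate 1, where the remaining Z library has 0 counts. The shared peaks had 554 of 870 called higher in ZS minus Z, and the virus-only peaks 45 of 110 (40.9%). Since ZcG and ZS were both compared with the same Z libraries, the 2 comparisons are given side by side only.

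Adding virus to cGAMP gave 0 of 8 called in PScG minus PcG (background 0.412%; 0 at an unadjusted p under 0.05 by edgeR and by DESeq2) and 0 of 8 in ZScG minus ZcG (background 2.79%; 1 at that level by each tool). The single member was Fto, at -2.50 ± 0.93 (SE) with an edgeR adjusted p of 0.126. For the question of whether virus changes the cGAMP response, the interaction ZScG minus ZS minus ZcG plus Z was fitted, and 0 of 8 were called (background 1.59%; 2 at the unadjusted level by each tool). Fto had the lowest value, -3.46 ± 1.29 (SE, edgeR adjusted p 0.168), followed by Jam3 at -2.82 and Stag1 at -2.48. Among the shared peaks 256 of 870 were called in the interaction, all lower, with a median of -1.46, and the members' median was -0.14. LPS and HMW each overlapped cG at some members, and they were also compared with each other. In L minus H, 0 of 8 were called (background 3.71%; 0 at the unadjusted level by both tools), with a range of -0.67 (Yes1) to 1.07 (Usp8).

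Within 50 kb of the 8 members lay 84 other peaks, of which 19 had a d of cG of at least 1. The share over all chromosome 1 to 19 peaks was lower, at 10106 of 116556. Of these 19, 14 also had a d of S of at least 1, and 0 had a d of S of at most 0.5. Over all chromosome 1 to 19 peaks, 7242 of the 10106 with a d of cG of at least 1 (71.7%) had a d of S of at least 1. A d of S of at most 0.5 was seen at 509 of them (5.04%). The neighbour counts of 14 and 0 were near these 2 shares. The Pla1a peak had 30 neighbours, 8 of them at 1 or more in cG, and the highest, at chr16:38425343-38426081, had a d of 2.25 in cG and 2.53 in S. Gm4951 had 17 neighbours, 5 of them at 1 or more, the highest with 2.33 in cG and 2.03 in S.

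Yes1 had 1 such neighbour of 3, at chr5:32696353-32696971, with 2.05 in cG and 2.00 in S. Usp8 had 3 of 8, led by a peak with 1.35 in cG and 1.18 in S, and Mrtfa had 2 of 9. Fto, Stag1 and Jam3 had 0 of 6, 0 of 2 and 0 of 9, so their members stood alone among peaks with little gain. Thus 5 members had at least 1 neighbour with a d of at least 1 in both cG and S. The other 3 lay where no other peak rose by 1 or more with cGAMP. How many of all peaks have such a neighbour was not counted. Of the 19 neighbours at 1 or more in cG, 8 lay near Pla1a and 5 near Gm4951. These neighbour values come from the libraries of the rule and are a description.

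**Figure D5:**
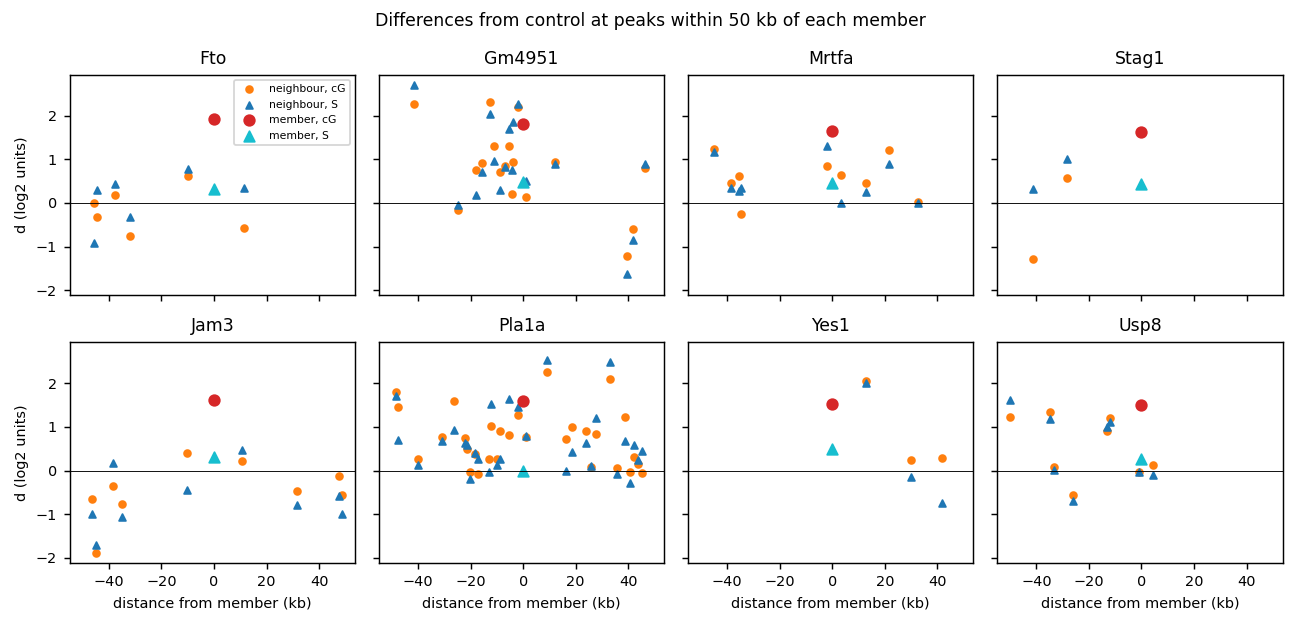
Difference from control (vertical axes, log2 units) of the peaks within 50 kb of each member against distance from the member (horizontal axes, kb); circles are cG and triangles S, with larger symbols for the member itself at distance 0. At Pla1a, Gm4951, Yes1, Usp8 and Mrtfa neighbours with raised circles mostly have raised triangles too, and the gap between circle and triangle at the member itself is set by the rule.

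Lists of 105 genes covered the STING pathway, the RIG-I pathway, interferon-stimulated genes, inflammatory genes, genes of the unfolded protein response and cell death, and genes of lysosome, autophagy and lipid handling. Of these, 104 were matched in the gene table, and 0 had a member within 10 kb. Gm4951 was not on these lists. In ZcG minus Z, peaks of the interferon-stimulated list were called higher at 26 of 184 and lower at 1, against 4.12% and 4.95% of all peaks. The inflammatory list had 26 higher and 6 lower of 211, and the STING list 12 higher and 9 lower of 219. At Ifnb1, which encodes interferon beta, the peak at chr4:88519372-88521906 had a log2 fold change of 2.31 ± 0.30 (SE, edgeR adjusted p 7.95e-10). The RIG-I list had 6 higher and 0 lower of 132, among them a peak of Ifih1, an RNA sensor, at chr2:62587194-62592006 with 0.91 ± 0.14 (SE, edgeR adjusted p 1.31e-07). The unfolded protein and cell death list had 9 higher and 0 lower of 95, and the lysosome list 4 higher and 5 lower of 136.

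In PcG minus PS, where cGAMP and virus were compared beside PAM and 0.129% of all peaks were called, there were 1 higher and 2 lower of 219 in the STING list, 0 of 132 in the RIG-I list, 0 higher and 1 lower of 184 in the interferon-stimulated list and 1 higher and 2 lower of 211 in the inflammatory list. The unfolded protein and cell death list had 0 higher and 1 lower, and the lysosome list 1 higher and 0 lower.

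Library totals ran from 19097027 to 39977088 counts, of which 44.1% to 63.1% fell in a mitochondrial peak. On chromosomes 1 to 19, without the largest peak (chr1:24611386-24616337, 13.6% to 28.8% of those counts), 5973882 to 18387733 counts remained. The groups Ctrl, Z, ZcG, ScG and ZScG had mean mitochondrial shares of 58.3% to 63.0% and 5973882 to 8739640 remaining counts per library, and the other 13 groups 44.4% to 54.5% and 7441569 to 18387733. Ctrl was thus in the shallower class and cG, S and P in the deeper, so that this difference and the treatment cannot be told apart in d, whereas ZcG and Z were both in the shallower. ZS was in the other class, with a mean mitochondrial share of 54.5%, though its 7518284 to 8502167 counts lay within the shallower range. Comparisons of ZS with Z, ZcG or ZScG, and the interaction, thus crossed the classes by mitochondrial share. That difference and the treatment cannot be told apart there. Defining genes of dendritic cells and macrophages had a peak within 1 kb of their start in all 6 cases where the start was listed, at 5.76 to 51.7 CPM in Ctrl (Itgax, Itgam, Flt3, Irf4, Irf8 and Cebpb). No such peak was found at 4 T cell, 2 B cell and 2 fibroblast genes, while 2 of 3 natural killer genes (Klrb1c at 18.7 CPM and Eomes at 1.53 CPM), 1 of 5 neutrophil genes (S100a8, 22.2 CPM) and 1 of 3 erythroid genes (Klf1, 13.8 CPM) had one. Their part in the members' values was not tested. In such bulk libraries, more cells with an open site and more opening per cell cannot be told apart.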

How the data were processed

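The authors deposited a table of raw counts of reads in peaks, 1 column per library for 36 libraries. Per the submitters' processing notes, Bowtie2 2.2.9, MACS2 1.4, bedtools and featureCounts were used with build mm10; parameters, handling of duplicates and mitochondrial reads, and any shift for the transposase are not given in the sources used here. Low values thus rest on reads that need not be independent molecules. The members, gene lists and comparisons were chosen with earlier results of these data known. The largest-count peak left out of the CPM total was taken as the largest on chromosomes 1 to 19. CPM used a pseudocount of 0.5 on the log2 scale.

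Tests used edgeR 4.0.16 in R 4.3.3 on the counts as deposited, without the mitochondrial peak: TMM scaling, filterByExpr (119464 of 119750 peaks kept, all 8 members among them), 1 coefficient per group over 36 libraries, 18 residual degrees of freedom, robust quasi-likelihood fit and Benjamini-Hochberg adjustment over all peaks, in 10 comparisons. DESeq2 1.42.0 was an alternative, beside other scalings, filters, a replicate block, fits on the compared groups only and leaving out each library. The scripts were tested on simulated counts. Named peaks were those with at least 20 counts in each cG library, those next to the threshold, and any called or near a listed gene; Gm4951 and Stag1 fell outside this rule and are named because they are members. Genes were located with RefSeq's gene table for GRCm38.p6. Peak sequences were not analysed here.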

Additional observations from a re-analysis of the deposited data

How the results depend on the processing

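The number of members depended on how the rule was computed. It was 8 as reported, 5 when the largest chromosome 1 to 19 peak was kept in the CPM total (3 shared with the 8; tried after seeing the data), 1 with a pseudocount of 1 (0 shared), 60 with a pseudocount of 0.1 (1 shared), 6 without centring (3 shared), and 54 and 57 in replicate 1 and replicate 2 alone (1 shared each). Fto was kept in 3 of these 6 alternatives, Gm4951 and Usp8 in 2 each, Mrtfa and Jam3 in 1 each, and Stag1, Pla1a and Yes1 in 0. The cause was not tested.

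Members called in ZcG minus Z were 0 as reported, and 1 (Jam3) with DESeq2 size factors in edgeR, with no filter, and with the largest chromosome 1 to 19 peak also left out (the last tried after seeing the data). Leaving out each library in turn gave 0 to 1 in ZcG minus Z (Jam3, log2 fold change 6.95 without Z replicate 1) and 0 to 1 in ZS minus Z (Stag1, 7.02, edgeR adjusted p 0.0141, without Z replicate 1). A lone library is there assumed to vary like the other groups. Of 118 alternative counts of called members, 113 equalled the reported 0. The 5 that differed were in ZcG minus Z and ZS minus Z. In the other comparisons at most 3.71% of all peaks were called as reported, so a count of 0 was likely there in advance. In ZcG minus Z and ZS minus Z the shares were 9.07% and 15.2%. With only 8 members, a count of 0 is not unusual there either. Counts with a mean count of at least 10 tested 4 members, and those with only the compared groups tested 1 to 7. The DESeq2 test is not counted in the 6 comparisons where it gave no member an adjusted p, and in the interaction and in L minus H it gave 1 member of 8 an adjusted p. In ZcG minus Z the log2 fold change changed sign for Gm4951 (5.44 without Z replicate 2 and 0.27 without ZcG replicate 1, over a range of -2.12 to 5.44), Mrtfa (-0.088 without ZcG replicate 2, range -0.088 to 0.63), Pla1a (-0.11 without Z replicate 1 and -5.42 without ZcG replicate 2, range -5.42 to 2.07) and Usp8 (0.02 without Z replicate 1 and 0.41 without ZcG replicate 1, range -1.61 to 0.41).

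With the replicate block, 0 members were called in each of the 10 comparisons, and 2, 2, 1 and 2 passed an unadjusted p under 0.05 in ZcG minus Z, ZS minus Z, ZScG minus ZcG and the interaction, as without it. The numbers did not pair the libraries: the correlation of replicate differences between groups ran from -0.04 to 0.03 over 153 pairs of groups, 0 of them above 0.1.

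Calls over all peaks moved by over 1.5 times with only the compared groups in the fit (PScG minus PS 719 to 1422, ZScG minus ZS 70 to 31, PcG minus PS 154 to 535, ZcG minus ZS 548 to 119, PScG minus PcG 492 to 1493, ZScG minus ZcG 3333 to 1435, interaction 1897 to 1061) and with total count scaling (ZScG minus ZS 296, ZcG minus ZS 1941). Leaving out a library gave 5304 to 6927 in ZcG minus Z (10840 as reported), 104 to 395 in PScG minus PS (719), 9 to 53 in ZScG minus ZS (70), 21 to 47 in PcG minus PS (154), 60 to 319 in ZcG minus ZS (548), 9279 to 12800 in ZS minus Z (18118), 39 to 153 in PScG minus PcG (492), 916 to 1670 in ZScG minus ZcG (3333), 1104 to 1550 in the interaction (1897) and 1766 to 2370 in L minus H (4430). The motif alternative was not run, since it needs peak sequences.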
